A study of Mus musculus with 11 samples.

Results

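The immunoproteasome and the MHC class I pathway were followed through 10 genes in wasting mouse quadriceps: the catalytic subunits Psmb8, Psmb9 and Psmb10, the PA28 activator subunits Psme1 and Psme2, the peptide loading genes Tap1, Tap2 and Tapbp, and the class I light and heavy chains B2m and H2-K1. The members were the genes whose symbol, current or former, annotated a probe of the array, and 18 of the 45281 probes belonged to them. A gene was tested if it had a probe with a detection p under 0.01 throughout 1 group or more, which held for 9 of the 10 and for 10134 genes in all. Every result is a level or a change of RNA in whole muscle, on the log2 scale.

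The standard proteasome degrades ubiquitin-tagged proteins in all cells. Under interferon, and constitutively in many cells of the immune system, its catalytic subunits are exchanged for Psmb8, Psmb9 and Psmb10, and the PA28 ring of Psme1 and Psme2 can cap the core. Peptides cut in the cytosol are carried into the endoplasmic reticulum by the Tap1-Tap2 transporter, are loaded with the help of tapasin (Tapbp) onto a heavy chain such as H2-K1 paired with beta-2 microglobulin (B2m), and are shown to CD8 T cells. Resting skeletal muscle fibers are known for low class I levels.

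The 11 arrays held quadriceps RNA of 1 mouse each, all female CD2F1 mice that the labels give as 5-6 weeks old. There were 4 mice with severe cachexia (15% weight loss), 3 with moderate cachexia (10% weight loss, labelled Early cachexia) and 4 control mice (labelled normal). The control mice carried no tumor, and the paper describes its controls as injected with PBS. By the paper, severe mice were killed later after tumor injection than moderate mice. Severity and time with the tumor therefore cannot be told apart. Both cachectic groups carried the C26 colon adenocarcinoma, 1 tumor line, implanted under the skin, and no engineered allele is named for any mouse. The labels and the methods name different vendors and different sites of implantation, so neither is given here. CD2F1 mice are a cross of BALB/c and DBA/2, which share the H2-d class I haplotype, and how well the heavy chain probes match those alleles was not tested. Mice are named by the number that the signal table gives them.

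Arrays detected 18626 to 20006 probes each, and the median of the 11 muscle fiber markers tested stayed between -0.059 and 0.025 of the control mean on every array. Most of these markers are among the brightest probes, where quantile normalization leaves little room to move. Their median therefore cannot show that the arrays are alike. Of the 11, 1 was called higher and 1 lower in severe cachexia. One library stood apart. Severe mouse 11 correlated with the other arrays, those of other groups included, at 0.953 to 0.978. With the other severe mice alone it was 0.963 to 0.978. Among moderate mice the correlations were 0.981 to 0.986, and among control mice 0.986 to 0.992. Its leukocyte markers (median of 7 tested) lay 0.99 above the control mean, with -0.047 to 0.32 for severe mice 13, 15 and 16. Its macrophage markers lay 1.65 above it, with 0.45 to 0.47 for those 3 mice, and its adipocyte markers 0.28 above it, with -1.60 to -1.13. The members' results in severe cachexia, and the counts of the other lists, are therefore given with and without this mouse. It was singled out after the values were seen. Where it was the highest severe mouse, leaving it out lowers the severe mean and the spread by that choice. The p-values and counts without it are therefore descriptive only.

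Most of the genes lie close together. In the GRCm38.p6 annotation of RefSeq, 6 of the 10 are on chromosome 17, in the major histocompatibility complex. Psmb9 (chr17:34182030-34187330), Tap1 (chr17:34187556-34197225), Psmb8 (chr17:34198195-34201454) and Tap2 (chr17:34204479-34216321) fill 34292 bases, and Psmb9 and Tap1 lie 225 bases apart on opposite strands, starts facing. Tapbp (chr17:33919478-33929290) and H2-K1 (chr17:33996012-34000619) lie in the same complex. Psme1 (chr14:55578494-55581527) and Psme2 (chr14:55587440-55591101) are neighbours on chromosome 14, with 5912 bases between them. B2m is at chr2:122147687-122153082 and Psmb10 at chr8:105935728-105938392.

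Promoter windows, 250 bases before to 50 after the annotated start, were at hand from RefSeq (GRCm38.p6) for 9 of the 10 genes. They were searched on both strands for 3 motifs: the interferon-stimulated response element as GAAANNGAA, the gamma-activated site as TTCNNNGAA, and the NF-kB site as GGGANTTTC, of which none overlapped another where they matched. The windows of Psme1 and Psmb10 are shown because these genes fell in both stages of cachexia, and those of Psmb8 and B2m because they held a match and their calls turned on severe mouse 11. Capitals mark the matches.
Psme1, chr14:55578244-55578543, plus strand: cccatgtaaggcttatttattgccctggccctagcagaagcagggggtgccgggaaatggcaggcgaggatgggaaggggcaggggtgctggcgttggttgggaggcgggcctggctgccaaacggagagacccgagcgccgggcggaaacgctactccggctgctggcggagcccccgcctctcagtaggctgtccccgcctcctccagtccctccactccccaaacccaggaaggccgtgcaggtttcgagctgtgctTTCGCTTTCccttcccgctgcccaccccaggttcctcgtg
Psmb10, chr8:105938343-105938642, minus strand: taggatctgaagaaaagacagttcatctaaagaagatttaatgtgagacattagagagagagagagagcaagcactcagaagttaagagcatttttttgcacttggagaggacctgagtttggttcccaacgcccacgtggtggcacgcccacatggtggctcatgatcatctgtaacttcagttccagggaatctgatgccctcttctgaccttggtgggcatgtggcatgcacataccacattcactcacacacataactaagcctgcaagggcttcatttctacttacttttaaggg
Psmb8, chr17:34197945-34198244, plus strand: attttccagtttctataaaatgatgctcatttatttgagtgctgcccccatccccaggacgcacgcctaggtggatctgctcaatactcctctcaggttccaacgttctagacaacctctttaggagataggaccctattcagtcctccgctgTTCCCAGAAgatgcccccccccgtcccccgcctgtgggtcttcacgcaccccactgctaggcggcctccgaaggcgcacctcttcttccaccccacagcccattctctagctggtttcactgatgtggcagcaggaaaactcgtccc
B2m, chr2:122147437-122147736, plus strand: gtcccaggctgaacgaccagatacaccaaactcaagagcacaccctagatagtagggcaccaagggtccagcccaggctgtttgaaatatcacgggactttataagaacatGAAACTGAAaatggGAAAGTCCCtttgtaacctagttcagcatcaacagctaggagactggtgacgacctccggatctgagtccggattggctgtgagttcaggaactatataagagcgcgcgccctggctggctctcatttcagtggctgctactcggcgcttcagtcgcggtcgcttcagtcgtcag
Psme1 held a response element on its minus strand, its match beginning at base 11 of the transcript. B2m held one that began 139 bases before its start, with an NF-kB match on the minus strand beginning 125 bases before it, and Psmb8 held a gamma-activated site that began 97 bases before its start. No other window of the 9 genes held a match. Of all 32851 promoters of this length, 8.56% held GAAANNGAA, 8.3% TTCNNNGAA and 1.11% GGGANTTTC, and among the 9 members these were in 2, 1 and 1. A match is a run of letters, not a measured binding site.

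With all mice in the fit, the members called lower were proteasome genes in both stages of cachexia. This split rests on the threshold. In moderate cachexia B2m, not called, changed by -0.57 (adjusted p = 0.0556 by limma), more than Psme2, called at -0.43 (adjusted p = 0.0397). In severe cachexia 2 of the 9 tested members fell and 0 rose, near the background of 17.8% of all genes tested called lower in that comparison. These were Psme1 and Psmb10. In moderate cachexia 4 of 9 fell and 0 rose, against a background of 22.2% called lower, and these were Psme1, Psmb10, Psmb8 and Psme2. The log2 fold change was negative for 8 of 9 members in each comparison, with a median of -0.47 in severe and -0.43 in moderate cachexia, while the median over all genes tested was 0.0048 and -0.033. All tests are from a limma model with Benjamini-Hochberg adjustment over 10134 genes. In whole muscle, fewer cells of a type and less RNA per cell cannot be told apart. With severe mouse 11 left out, 5 of the 9 members fell in severe cachexia (Psme1, Psmb10, Psmb8, B2m and H2-K1), against a background of 20.8% called lower, and 5 fell in moderate cachexia, where B2m was added to the 4, against 24.1%.

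**Figure D1:**
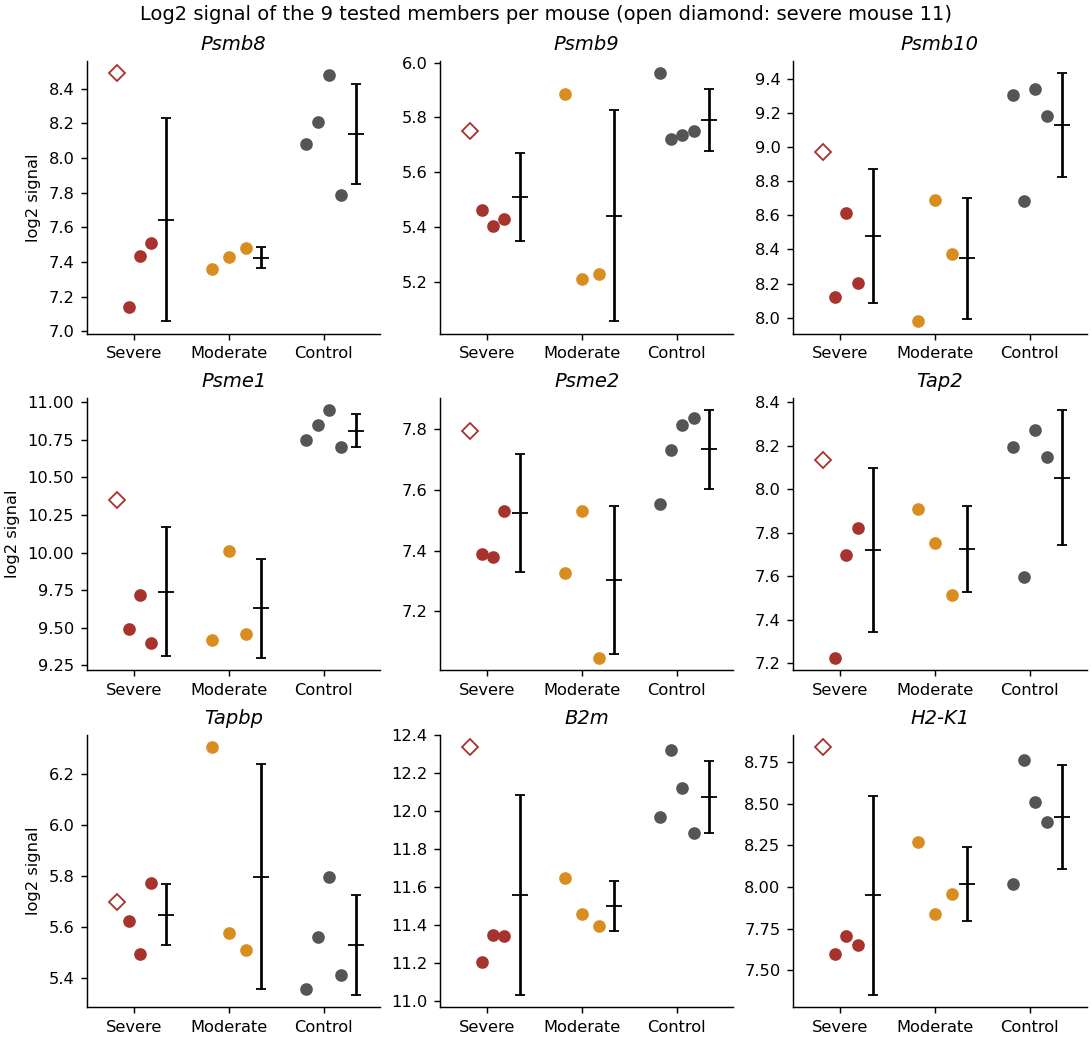
Log2 signal (vertical axis) of each tested member in every mouse, by group on the horizontal axis. Points are mice, the open diamond is severe mouse 11, and black bars are the mean and SD. For Psme1 every cachectic mouse lies below all 4 control mice, while for B2m, H2-K1 and Psmb8 severe mouse 11 lies above the other 3 severe mice and all 3 moderate mice.

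Psme1, which encodes the alpha subunit of the PA28 cap, changed the most of the 9. Its log2 signal was 10.35, 9.49, 9.71 and 9.40 in severe mice 11, 13, 15 and 16, 9.42, 10.01 and 9.46 in moderate mice 5, 9 and 12, and 10.75, 10.85, 10.95 and 10.70 in control mice 1 to 4. Every cachectic mouse was below every control mouse. Psme1 was 2.1-fold lower in severe cachexia (log2 fold change -1.07, SE 0.19, adjusted p = 0.00168 by limma) and 2.27-fold lower in moderate cachexia (-1.18, SE 0.21, adjusted p = 0.0011). Its second probe, in a fit of all probes, gave -1.02 in severe (adjusted p = 0.0014) and -0.91 in moderate cachexia (adjusted p = 0.00328). Psme1 was the one member whose groups did not overlap in severe cachexia, where 17.3% of all genes tested lay wholly below the control values. In moderate cachexia 4 members lay wholly below them (Psme1, Psmb8, Psme2 and B2m), against 25% of all genes. Psme1 passed the threshold in both comparisons under all 13 alternative settings and with any of the 11 mice left out.

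Psme2, the beta subunit of the same cap, moved less. It measured 7.79, 7.39, 7.38 and 7.53 in severe mice, 7.33, 7.53 and 7.05 in moderate mice, and 7.55, 7.73, 7.81 and 7.84 in control mice. The moderate mice were all below the control mice, moderate mouse 9 and control mouse 1 nearly touching, and severe mouse 11 was within the control range. Psme2 was 1.35-fold lower in moderate cachexia (-0.43, SE 0.15, adjusted p = 0.0397 by limma), a call that was lost with severe mouse 16 or moderate mouse 5 or 12 or control mouse 2, 3 or 4 left out (adjusted p = 0.0541 to 0.177). In severe cachexia its change was -0.21 (SE 0.14, adjusted p = 0.276), and -0.30 when severe mouse 11 was left out (adjusted p = 0.104).

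Among the catalytic subunits, Psmb10, the trypsin-like subunit of the immunoproteasome, fell in both stages. It measured 8.97, 8.12, 8.61 and 8.20 in severe mice, 7.98, 8.69 and 8.38 in moderate mice, and 9.30, 8.68, 9.34 and 9.18 in control mice. Control mouse 2 lay among the cachectic mice, and the other 3 control mice lay above all of them. Psmb10 was 1.57-fold lower in severe cachexia (-0.65, SE 0.21, adjusted p = 0.0329 by limma) and 1.72-fold lower in moderate cachexia (-0.78, SE 0.23, adjusted p = 0.0174). Its second probe gave -0.81 in severe (adjusted p = 0.00471) and -0.79 in moderate cachexia (adjusted p = 0.00631). The severe call was lost with severe mouse 13 or 16 or control mouse 1, 3 or 4 left out (adjusted p = 0.073 to 0.10) and the moderate call with moderate mouse 5 left out (adjusted p = 0.0982). With severe mouse 11 left out the severe change of Psmb10 was -0.81 (adjusted p = 0.00609). Psmb10 was called in 10 of the 13 alternative settings in severe and in 12 of the 13 in moderate cachexia. The methods' t-test, after adjustment, called it in neither stage.

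Psmb8, the chymotrypsin-like subunit, measured 8.49, 7.14, 7.43 and 7.51 in severe mice, 7.36, 7.43 and 7.48 in moderate mice, and 8.08, 8.21, 8.48 and 7.79 in control mice. Severe mouse 11 was the highest of all 11 mice, and the other 6 cachectic mice were below every control mouse. In moderate cachexia Psmb8 was 1.64-fold lower (-0.71, SE 0.26, adjusted p = 0.042 by limma), and this call was lost with severe mouse 16 or moderate mouse 5, 9 or 12 or control mouse 1, 2 or 3 left out (adjusted p = 0.0526 to 0.12). In severe cachexia the change was -0.50 (SE 0.24, adjusted p = 0.13), and without severe mouse 11 it was -0.78 (SE 0.16, adjusted p = 0.00227). The dimmer second probe of Psmb8 gave -0.49 in severe cachexia (adjusted p = 0.0276) and -0.32 in moderate cachexia (adjusted p = 0.143), so the probes passed the threshold in different comparisons.

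Psmb9, which replaces the caspase-like subunit, was read by 1 dim probe. It measured 5.75, 5.46, 5.40 and 5.43 in severe mice, 5.89, 5.21 and 5.23 in moderate mice, and 5.96, 5.72, 5.73 and 5.75 in control mice. Moderate mouse 5 and severe mouse 11 lay within the control range and the other 5 cachectic mice lay below it. The change was -0.28 in severe (adjusted p = 0.186 by limma) and -0.35 in moderate cachexia (adjusted p = 0.116). It was -0.36 in severe cachexia with severe mouse 11 left out (adjusted p = 0.0934), and in moderate cachexia it was -0.57 with moderate mouse 5 left out (adjusted p = 0.0163).

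The light and heavy chains of class I did not pass the threshold with all mice in the fit. B2m, whose probe was the brightest of the members, measured 12.34, 11.20, 11.35 and 11.34 in severe mice, 11.65, 11.46 and 11.40 in moderate mice, and 11.97, 12.32, 12.12 and 11.89 in control mice. Severe mouse 11 was the highest of all mice, and the other 6 cachectic mice were below every control mouse. The change of B2m was -0.51 in severe (SE 0.21, adjusted p = 0.0714 by limma) and -0.57 in moderate cachexia (SE 0.22, adjusted p = 0.0556). Without severe mouse 11 it was 1.71-fold lower in severe cachexia (-0.77, SE 0.12, adjusted p = 0.000455), and B2m in moderate cachexia then had an adjusted p of 0.00243. A second B2m probe gave -0.42 in severe and -0.52 in moderate cachexia, and another was not detected on any array.

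H2-K1, a classical class I heavy chain, measured 8.84, 7.60, 7.70 and 7.65 in severe mice, 8.27, 7.84 and 7.96 in moderate mice, and 8.02, 8.77, 8.51 and 8.39 in control mice. The severe mice other than mouse 11 were below every control mouse, and the moderate mice overlapped control mouse 1. The change of H2-K1 was -0.47 in severe (adjusted p = 0.167 by limma) and -0.40 in moderate cachexia (adjusted p = 0.26), and without severe mouse 11 it was -0.77 in severe cachexia (adjusted p = 0.00317). A dimmer H2-K1 probe gave -0.033 in severe and 0.13 in moderate cachexia, where its direction was the opposite one, and another was detected on 4 of 11 arrays and was not tested. Class I heavy chains are alike in sequence, and signal shared between their probes was not tested.

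The peptide loading genes did not pass the threshold in either comparison. Tap2, the partner of Tap1 in the peptide transporter, measured 8.14, 7.23, 7.70 and 7.82 in severe mice, 7.91, 7.76 and 7.52 in moderate mice, and 8.19, 7.60, 8.27 and 8.15 in control mice. The groups overlapped through control mouse 2. The change of Tap2 was -0.33 in severe (adjusted p = 0.212 by limma) and -0.33 in moderate cachexia (adjusted p = 0.241), and with severe mouse 11 left out it was -0.47 in severe cachexia (adjusted p = 0.0624). Tapbp, which bridges the transporter and the empty heavy chain, was the one member with positive changes by its tested probe, 0.12 in severe (adjusted p = 0.632) and 0.27 in moderate cachexia (adjusted p = 0.275), and 0.10 in severe cachexia with mouse 11 left out (adjusted p = 0.701). Moderate mouse 5 had its highest value, 6.30. A second Tapbp probe was detected on 3 of 11 arrays and in no severe mouse, and was not tested. It read 4.31 to 4.56 in severe, 4.86 to 5.18 in moderate and 4.59 to 5.14 in control mice. The severe values lay just below the control values, but the probe was detected in only 2 of the 4 control mice. These readings are near background, so no direction is read from them. The single probe of Tap1 was not detected on any of the 11 arrays, with signals of -0.70 to 11.7 and detection p-values of 0.011 to 0.513, so Tap1 was not tested.

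**Figure D2:**
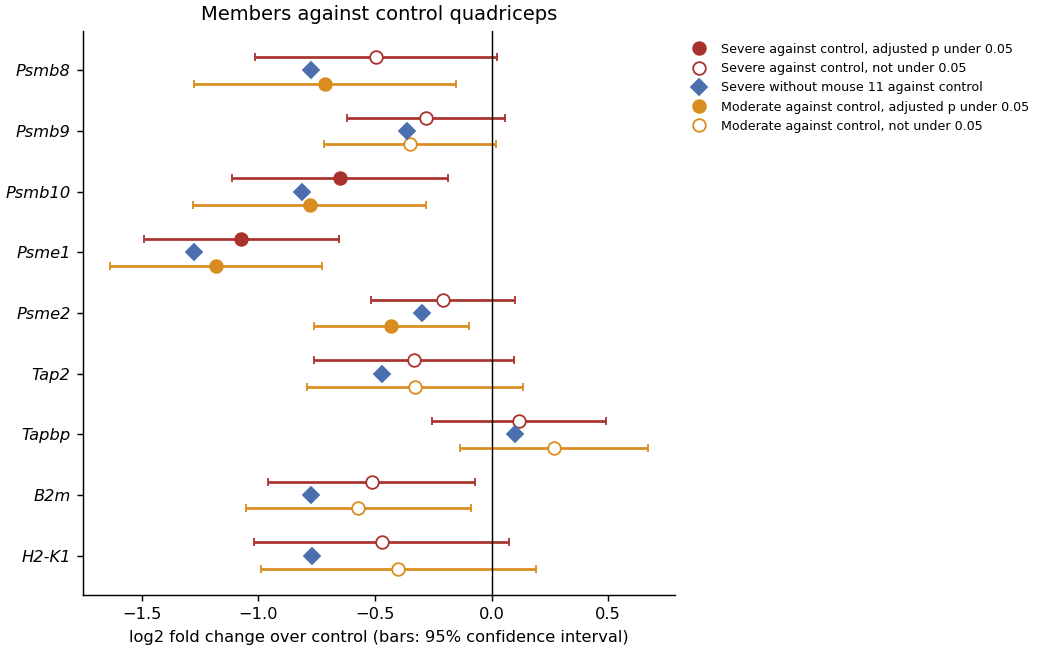
Log2 fold change over control (horizontal axis) of each tested member (rows) in severe and moderate cachexia, with 95% confidence intervals. Filled circles passed an adjusted p of 0.05 and diamonds give severe cachexia without mouse 11. Psme1 (-1.07 in severe, -1.18 in moderate) lies farthest to the left, and Tapbp alone lies to the right of 0.

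Between severe and moderate cachexia 0 members passed the threshold, against a background of 6.98% of all genes tested, and 0 had an unadjusted p under 0.05 in limma. The differences ran from -0.15 for Tapbp to 0.22 for Psme2, and the 95% confidence intervals of all 9 members held 0, with limits between -0.66 and 0.78. Without severe mouse 11, H2-K1 differed the most, by -0.37 (adjusted p = 0.236 by limma), with its 3 severe values then all below the 3 moderate values.

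Seen mouse by mouse, the members' median was below the control mean in 6 of the 7 cachectic mice. The median deviation of the 9 members from the control mean was -0.83, -0.51 and -0.63 in severe mice 13, 15 and 16 and -0.40, -0.58 and -0.66 in moderate mice 5, 9 and 12. It was 0.082 in severe mouse 11, and -0.064 to 0.14 in the control mice. In each of those 6 cachectic mice 7 to 9 of the 9 members were below the control mean, while in severe mouse 11 this held for 3. After removal of the group means, 33 of the 36 pairs of members correlated above 0 over the 11 arrays, with a median r of 0.47. Leaving out severe mouse 11 gave 25 of 36 and 0.20. Every pair rests on the same arrays and RNA preparations.

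The standard subunits that the immunoproteasome subunits replace showed no fall. Psmb5, the counterpart of Psmb8, measured 9.68, 9.96, 9.64 and 10.04 in severe mice, 9.88, 9.46 and 9.30 in moderate mice, and 9.23, 9.57, 9.75 and 9.44 in control mice. Its change was 0.34 in severe (adjusted p = 0.118 by limma) and 0.053 in moderate cachexia (adjusted p = 0.824). Psmb6, the counterpart of Psmb9, changed by 0.12 in severe and 0.13 in moderate cachexia, and Psmb7, the counterpart of Psmb10, by 0.18 in each, with adjusted p-values of 0.215 to 0.504. The other subunits of the 20S core rose: 7 of 8 tested in severe and 8 of 8 in moderate cachexia, against a background of 15.6% and 18.9% of all genes called higher. Psma7, an outer ring subunit, rose by 1.56 in severe (adjusted p = 0.000152) and 1.26 in moderate cachexia (adjusted p = 0.000617). Psma4 rose by 0.85 and 0.57 and Psmb3 by 0.77 and 0.49 in severe and moderate cachexia. With severe mouse 11 left out, 8 of 8 rose in severe cachexia, against 19.6% of all genes.

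Within a mouse, the difference between an immunoproteasome subunit and its standard counterpart removes what both probes share on that array. These differences, chosen after the values were seen, compare changes and not amounts, since each probe has its own scale. Psmb8 minus Psmb5 was -1.20, -2.82, -2.20 and -2.53 in severe mice 11, 13, 15 and 16, -2.52, -2.03 and -1.82 in moderate mice, and -1.15, -1.36, -1.27 and -1.65 in control mice. Every moderate mouse, and every severe mouse but mouse 11, was below the control mice. The mean difference from control was -0.83 in severe (two-sided exact permutation p = 0.114, n = 4 against 4) and -0.77 in moderate cachexia (exact permutation p = 0.0286, n = 3 against 4, the smallest that this design allows). For Psmb9 minus Psmb6 it was -0.40 in severe (exact permutation p = 0.114) and -0.48 in moderate cachexia (exact permutation p = 0.0571). For Psmb10 minus Psmb7 it was -0.83 in severe (exact permutation p = 0.0571) and -0.96 in moderate cachexia (exact permutation p = 0.0857). After Benjamini-Hochberg adjustment over the 9 tests of this family the lowest value was 0.171, so 0 of them passed. Leaving out severe mouse 11, the severe differences were -1.16, -0.55 and -1.05 for the 3 pairs.

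**Figure D3:**
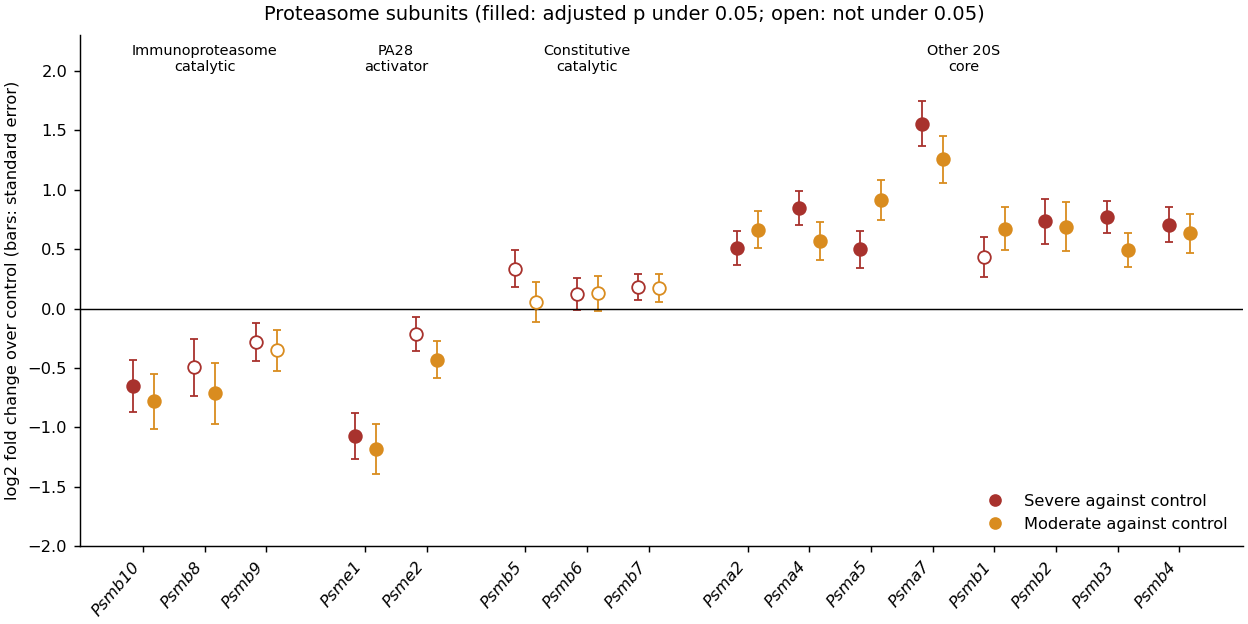
Log2 fold change over control (vertical axis, bars are standard errors) of proteasome subunits in severe (left of each pair) and moderate cachexia. Filled circles passed an adjusted p of 0.05. The immunoproteasome and PA28 subunits lie below 0, the 3 standard catalytic subunits reach 0.34 at most, and the other 20S subunits reach 1.56 for Psma7 in severe cachexia.

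The few other proteasome genes called did not share one direction. Among 6 tested genes of assembly and alternative caps, 0 rose and 0 fell in severe cachexia in limma's test. In moderate cachexia 1 rose, a share below the 18.9% of all genes called higher, and 2 fell, a share above the 22.2% called lower. Counts this small do not set the list apart. Psme4 alone rose in severe cachexia with mouse 11 left out (0.30, adjusted p = 0.0345). Psme4, the PA200 activator, rose by 0.60 in moderate cachexia (adjusted p = 0.000961), and the assembly chaperones Psmg2 (-0.39) and Psmg1 (-0.35) fell. Pomp, a chaperone in the assembly of the immunoproteasome and of the standard core, changed by 0.20 in severe (adjusted p = 0.135) and 0.22 in moderate cachexia (adjusted p = 0.106).

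Of the other class I heavy chains, 13 of 26 listed were tested, 2 fell in severe and 1 in moderate cachexia, with medians of -0.41 and -0.17. As shares of the 13 both lay below the 17.8% and 22.2% of all genes called lower. Cd1d1, which presents lipids and pairs with B2m, measured 8.78, 6.32, 6.04 and 6.49 in severe mice, 6.42, 6.17 and 5.96 in moderate mice, and 8.18, 8.84, 8.83 and 8.30 in control mice. Its log2 fold change was -1.63 in severe (adjusted p = 0.016 by limma) and -2.36 in moderate cachexia (adjusted p = 0.00276), with severe mouse 11 again in the control range. With that mouse left out, the severe change of Cd1d1 was -2.26 (adjusted p = 8.72e-06). Mr1, which presents vitamin B metabolites, fell by 0.49 in severe cachexia (adjusted p = 0.0273) and changed by -0.34 in moderate cachexia (adjusted p = 0.124), and in severe cachexia with mouse 11 left out it changed by -0.53 (adjusted p = 0.0216). When severe mouse 11 was left out, 7 of the 13 fell in severe cachexia, against 20.8% of all genes. Of 9 tested genes of peptide trimming and heavy chain folding, 2 rose and 0 fell in severe cachexia, near the 15.6% of all genes called higher. These were Calr, a chaperone of the loading complex (0.66, adjusted p = 0.0148), and Sec61a1, a subunit of the translocon (0.58, adjusted p = 0.0114). Both stayed called when severe mouse 11 was left out (adjusted p = 0.0169 and 0.014) and Hspa5, the chaperone BiP, was added (0.90, adjusted p = 0.0354). In moderate cachexia Erap1, the aminopeptidase that trims peptides in the endoplasmic reticulum, fell by 0.36 (adjusted p = 0.0405) and was detected in 2 of the 3 mice.

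Among 18 regulators tested, 2 rose and 1 fell in severe cachexia, and 3 rose and 3 fell in moderate cachexia, no more than the shares of all genes called higher (15.6% and 18.9%) and lower (17.8% and 22.2%). Rela, the p65 subunit of NF-kB, rose by 0.64 in severe (adjusted p = 0.00886 by limma) and 0.95 in moderate cachexia (adjusted p = 0.0012). Irf2, a competitor of Irf1 at response elements, rose by 0.71 in moderate cachexia (adjusted p = 0.000888) and changed by 0.30 in severe cachexia (adjusted p = 0.053). Ifngr1, the ligand-binding chain of the interferon gamma receptor, rose by 0.65 in moderate cachexia (adjusted p = 0.0053) and changed by 0.081 in severe cachexia (adjusted p = 0.688). Nfyb, a subunit of the NF-Y factor that binds class I and class II promoters, fell by 0.87 in severe cachexia (adjusted p = 0.00648). The 3 that fell in moderate cachexia, named after their values were seen, were Nlrc5, the transactivator of class I genes (-0.62, adjusted p = 0.0467), Irf1, an interferon-induced activator of response elements (-0.44, adjusted p = 0.0243), and the kinase Tyk2 (-0.50, adjusted p = 0.0142). In severe cachexia Nlrc5 changed by -0.43 (adjusted p = 0.14) and Irf1 by -0.27 (adjusted p = 0.127), and Irf9, the DNA-binding subunit of the ISGF3 factor, rose by 0.41 (adjusted p = 0.0471). When severe mouse 11 was left out, 2 regulators rose and 3 fell in severe cachexia. Nlrc5 (-0.64, adjusted p = 0.0112) and Irf1 (-0.37, adjusted p = 0.0272) were then among those that fell, Irf2 rose (0.36, adjusted p = 0.0235), Irf9 no longer passed (0.28, adjusted p = 0.0996), and Rela and Nfyb stayed called (adjusted p = 0.00297 and 0.00399).

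Of 24 tested genes that respond to interferon, 8 fell and 2 rose in severe cachexia and 12 fell and 1 rose in moderate cachexia, with medians of -0.26 and -0.55. Of all genes, 17.8% were called lower in severe and 22.2% in moderate cachexia. Of the 24, at least Cxcl9 and Gbp5 passed the detection filter through the control mice only, so they could hardly be called other than lower. Detection by group was not examined for every one of the 24, so others may have passed that way. The same holds for the class I heavy chains and the class II genes. Cxcl9 was detected in 0 of 3 moderate and 0 of 4 severe mice, and Gbp5 in 0 of 3 and 1 of 4. Igtp, an interferon-inducible GTPase, measured 6.54, 5.54, 5.55 and 5.68 in severe mice, 5.16, 5.27 and 5.36 in moderate mice, and 6.38, 6.77, 6.79 and 6.53 in control mice. Its log2 fold change was -0.79 in severe (adjusted p = 0.0103 by limma) and -1.36 in moderate cachexia (adjusted p = 0.00066). Ifit3, an interferon-induced antiviral gene, changed by -0.96 in severe (adjusted p = 0.00281) and -1.40 in moderate cachexia (adjusted p = 0.000354). Cxcl9, a chemokine made in response to interferon gamma, was not well above background on any cachectic array and was at least 1.58-fold lower in severe and at least 1.53-fold lower in moderate cachexia, a bound set against the lowest detected signal of each array. With severe mouse 11 left out, 11 of the 24 fell and 2 rose in severe cachexia, against 20.8% of all genes lower, and the severe changes were -1.03 for Igtp (adjusted p = 0.000137) and -1.16 for Ifit3 (adjusted p = 7.81e-05). Of the MHC class II genes, 7 of 8 tested fell in severe and 2 of 8 in moderate cachexia, the last near the share of all genes, and Cd74, the invariant chain, fell by 1.62 in severe and 0.75 in moderate cachexia. The class II count in severe cachexia was 7 of 8 when severe mouse 11 was left out.

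Markers of immune, fat and connective tissue cells moved on the same arrays. The counts below stand against the shares of all genes tested. These were 15.6% called higher and 17.8% lower in severe cachexia, and 18.9% and 22.2% in moderate cachexia. With severe mouse 11 left out they were 19.6% and 20.8% in severe cachexia, and 20.9% and 24.1% in moderate cachexia. Macrophage markers rose, 7 of 11 tested in severe and 6 of 11 in moderate cachexia, and their summed signal was 3732 to 8294 in severe mice, 3906 to 4958 in moderate mice and 2322 to 2763 in control mice. Of 7 leukocyte markers tested, 3 rose in severe and 0 in moderate cachexia, with summed signals of 1298 to 3511 in severe, 1598 to 1737 in moderate and 1250 to 1592 in control mice. Of the 13 T and NK cell markers 11 had a probe, and 8 of these, Cd3d, Cd3g, Cd8a and Nkg7 among them, were detected on no array, while Cd8b1 alone was detected on all 11. Cd8b1, a chain of the CD8 receptor, measured 9.55, 8.63, 8.97 and 8.95 in severe mice, 8.49, 8.88 and 8.49 in moderate mice, and 9.78, 10.09, 9.61 and 9.67 in control mice. It fell by 0.76 in severe (adjusted p = 0.00759 by limma) and 1.16 in moderate cachexia (adjusted p = 0.00087), and severe mouse 11 was the highest cachectic mouse. Adipocyte markers fell, 4 of 8 tested in severe and 5 of 8 in moderate cachexia, with summed signals of 2645 to 13915 in severe, 3922 to 5310 in moderate and 11275 to 14709 in control mice. Fibroblast markers fell too, 4 of 9 tested in severe and 4 of 9 in moderate cachexia, with medians of -0.96 and -0.89 and summed signals of 11815 to 18287 in severe, 14113 to 17688 in moderate and 16003 to 16997 in control mice. Their median per mouse lay at -1.60 to -0.74 of the control mean in severe mice 13, 15 and 16, at 0.042 in severe mouse 11, and at -1.29 to -0.23 in moderate mice. Col1a1, a chain of type I collagen, changed by -2.24 in severe (adjusted p = 0.00353) and -2.24 in moderate cachexia (adjusted p = 0.00401). Of 4 neutrophil markers tested, 2 rose in severe and 0 in moderate cachexia, with summed signals of 494 to 1428 in severe, 219 to 668 in moderate and 148 to 1135 in control mice. Of 7 smooth muscle and pericyte markers, 2 fell in severe and 3 in moderate cachexia, with 2815 to 3637 in severe, 2819 to 2975 in moderate and 3488 to 4029 in control mice. In severe cachexia with mouse 11 left out, 6 of the 11 macrophage markers rose, 2 of the 7 leukocyte markers rose and 1 fell, and 8 of the 8 adipocyte and 6 of the 9 fibroblast markers fell, while 1 of the 4 neutrophil markers rose and 3 of the 7 smooth muscle and pericyte markers fell. In moderate cachexia 9 macrophage markers then rose, 3 leukocyte markers rose and 2 fell, and 8 adipocyte and 5 fibroblast markers fell, and 1 neutrophil marker rose. Some of these markers passed the detection filter through 1 group only, which favours a call with that group higher. Rac2 (leukocytes) and Retnlg (neutrophils) passed through the severe mice. Col1a2 (fibroblasts) and Lmod1 (smooth muscle and pericytes) passed through the control mice. Fabp4 (adipocytes) was detected on 7 of the 11 arrays, and the group or groups it passed through were not examined. The counts above include them. The part of these cell types in the members' changes was not tested.

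**Figure D4:**
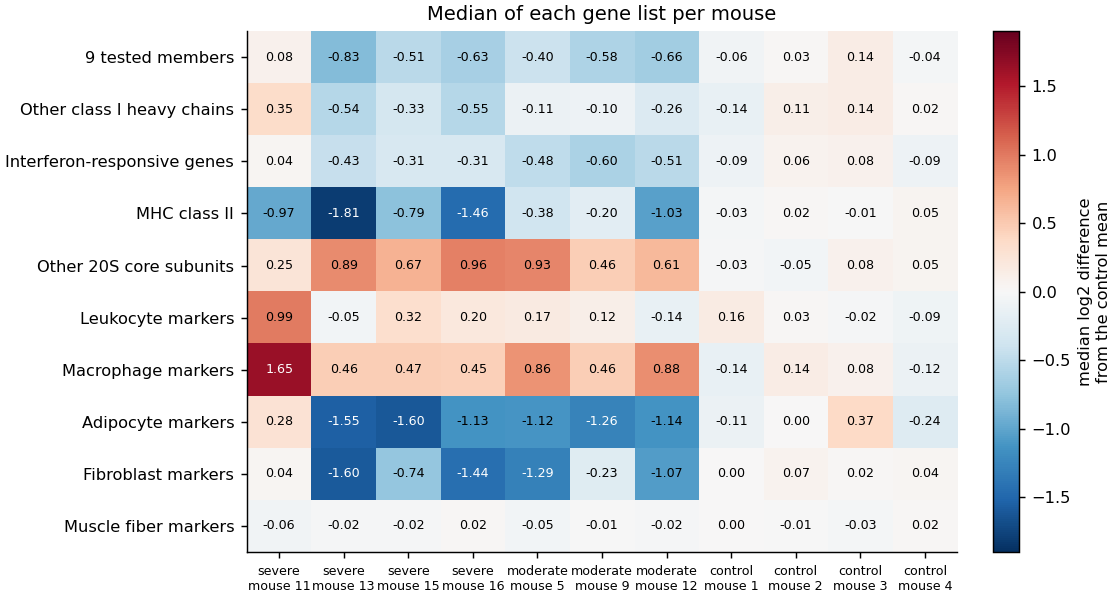
Median log2 difference from the control mean (colour and printed value) of each gene list (rows) in each mouse (columns). The 9 members are below 0 in every cachectic mouse except severe mouse 11 (0.082), which also has the highest leukocyte (0.99) and macrophage (1.65) medians an adipocyte median (0.28) within the control range, and a fibroblast median of 0.042, above the other cachectic mice.

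The genes most like the members were found by the correlation of each of the other tested genes with the mean of the members' standardized values over the 11 arrays. The 6 highest were Ifi27l2a (r = 0.983), Mmp23 (r = 0.968), Aqp7 (r = 0.958), Cox6a1 (r = 0.954), Fmo1 (r = 0.951) and Gstz1 (r = 0.951). Ifi27l2a, an interferon-inducible gene, measured 12.36, 10.00, 10.52 and 10.79 in severe mice, 11.07, 10.80 and 9.80 in moderate mice, and 12.12, 12.01, 12.66 and 11.63 in control mice. Its change was -1.19 in severe (adjusted p = 0.0439 by limma) and -1.55 in moderate cachexia (adjusted p = 0.0165). Aqp7, an aquaglyceroporin of adipocytes, changed by -0.94 in severe (adjusted p = 0.0198) and -1.34 in moderate cachexia (adjusted p = 0.00376). With severe mouse 11 left out, the severe changes were -1.67 for Ifi27l2a (adjusted p = 0.000774) and -1.22 for Aqp7 (adjusted p = 0.000857). These arrays share their groups and severe mouse 11, so the correlations describe this data set and carry no p-value.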

How the data were processed

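Quadriceps RNA was hybridised to Illumina MouseWG-6 v2.0 arrays, 1 per mouse. The authors deposited intensity values on the linear scale after subtracting background and normalizing by quantiles: 28.5% were negative, and equal ranks differed by no more than 0.319 between arrays. They also deposited a detection p-value per probe and array, and ratio values, which equal the intensities with a floor of 1 over the control median. BeadStudio and GeneSpring GX are the tools the methods name.

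In R 4.3.3 with limma 3.58.1, intensities were corrected by normexp from the detection p-values (offset 16), quantile-normalized and taken to log2. Of 45281 probes, 18837 were kept, with detection p below 0.01 throughout a group, and 16074 of these had a gene name. In the platform annotation, 34885 probes had 1 symbol, 18 several and 10378 none. The brightest probe stood for each of 10134 genes. A model of 3 group means with an intensity trend was fitted to all arrays, and genes with a Benjamini-Hochberg adjusted p under 0.05 were called. The fit was tested on simulated data. The number of mice, 3 or 4 a group, limits the precision, and p-values measure the spread between these mice. Alternatives covered background correction, scaling, the deposited ratios, the filter, the probe rule, the arrays fitted, the methods' t-test, the trend, array weights, a replicate block and leaving out each mouse.

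All 10 members were described, along with the genes of smallest adjusted p in each related list, the standard catalytic subunits and the 6 genes most like the members. The members and the 24 lists were chosen with earlier results of these data known. Columns of the signal file give a mouse's group but not its replicate number in the labels. Protein, serum and liver data are not analysed here.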

Additional observations from a re-analysis of the deposited data

Results flagged for a closer look

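Among 30 sets of 4 mice examined (the 9 tested members, Psmb5, Psmb6, Psmb7 and the 3 subunit differences, in severe and in control mice), 5 had a mouse far from the other 3. Chance alone flags about 1 in 20 such sets. Severe mouse 11 was the highest in 3 of them: B2m at 12.34, with 11.20 to 11.35 in the other severe mice, H2-K1 at 8.84, with 7.60 to 7.70, and Psmb9 at 5.75, with 5.40 to 5.46. Control mouse 1 was the highest in the other 2: Psmb9 at 5.96, with 5.72 to 5.75 in the other control mice, and Psmb9 minus Psmb6 at -5.08, with -5.75 to -5.64.

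For 3 genes of the related lists the change in severe cachexia differed from the change in moderate cachexia by limma's test of the difference. They were 1 of 9 tested genes of peptide trimming and folding, 1 of 18 regulators and 1 of 24 interferon genes. With all mice in the fit no other list held such a gene. Of all genes tested 6.98% passed this test, so the lists together lay below that share. Calr differed by 0.81 on the log2 scale (severe minus moderate, adjusted p = 0.029), with 9.19, 9.55, 8.75 and 9.28 in severe mice and 8.52, 8.37 and 8.26 in moderate mice. Ifngr1 differed by -0.57 (adjusted p = 0.0427), with 8.17, 7.69, 7.95 and 7.67 in severe mice and 8.64, 8.31 and 8.37 in moderate mice. Irgm2, an interferon-inducible GTPase, differed by 1.03 (adjusted p = 0.0235), with 8.90, 8.05, 7.79 and 7.73 in severe mice and 6.97, 7.29 and 6.98 in moderate mice. Leaving out severe mouse 11 gave 0.81 for Calr (adjusted p = 0.0393), -0.67 for Ifngr1 (adjusted p = 0.0176) and 0.77 for Irgm2 (adjusted p = 0.0134). No member passed this test.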

How the results depend on the processing

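No member reversed its direction against control under any of the 13 alternatives or with any mouse left out. Apart from the mean of a gene's probes, these settings read 1 probe per gene. The dimmer H2-K1 probe, read alone, gave 0.13 in moderate cachexia, the opposite direction. In severe cachexia, where 2 members were called, 1 was called without the detection filter, 1 by the methods' t-test after adjustment, 1 with the replicate block on the deposited ratios and 7 with array weights, and 1 to 5 with a mouse left out. There were 5 without severe mouse 11, and 1 (Psme1) without severe mouse 13 or 16 or control mouse 1, 3 or 4. In moderate cachexia, where 4 were called, 2 were called without the filter, and 2 to 5 with a mouse left out. The methods' t-test after adjustment called 3 in moderate cachexia, Psme1, Psmb8 and B2m, without Psmb10 and Psme2. Leaving out moderate mouse 5 or 12, severe mouse 16 or control mouse 2 or 3 left 2, and Psmb8 kept its call with 4 of the 11 mice left out in turn, Psme2 with 5 and Psmb10 with 10. Between severe and moderate cachexia 0 members were called in every setting, and some differences changed sign. With array weights they were -0.018 for Psmb10, -0.060 for Psme1, 0.022 for Tap2 and -0.12 for B2m, and with the mean of a gene's probes -0.0019 for Psme1. With a mouse left out they ran from -0.062 to 0.39 for Psmb8, -0.046 to 0.29 for Psmb9, -0.055 to 0.30 for Psmb10, -0.095 to 0.30 for Psme1, -0.14 to 0.16 for Tap2, -0.29 to 0.10 for Tapbp, -0.20 to 0.17 for B2m and -0.37 to 0.053 for H2-K1. The cause of these shifts was not tested.

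The count of all genes called was 5352 with array weights, against 3376, in severe cachexia, and 2602 without moderate mouse 5, against 4162, in moderate cachexia. Between severe and moderate cachexia it was 707, and 409 without the filter, 208 with only these 2 groups fitted, 7 by the methods' t-test, 1327 with array weights, 249 with the replicate block and 193 to 716 with a mouse left out. Replicate numbers are shared by the groups' labels, but 1 of 10 pairs of samples with the same number correlated above 0.1 and 1 of 11 samples correlated best with its own number, so they were not taken as pairs. The block on the deposited ratios called 3 members in moderate cachexia. Probes near background, such as that of Psmb9, limit how small a change these arrays can show.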
